A study of Mus musculus with 59 samples.

Results

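The cytosolic ribosomal protein genes encode the proteins of the ribosome that translates nuclear mRNAs. They were taken as the rows of the deposited expression table whose mouse symbol has the form Rpl or Rps plus a number, with Rplp0, Rplp1, Rplp2 and Rpsa added, and whose mean normalized count over 59 libraries was at least 10. Of 18088 listed genes, 82 matched by name and 81 had the required mean, 48 of the large subunit and 33 of the small subunit. Rpl3l, a striated-muscle paralogue of Rpl3, averaged 7.04 normalized counts and was left out. No measured drug or genotype effect entered this choice, although the set was picked with earlier results of these data in view. A normalized count is a gene's read count divided by a size factor for its library.

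The RNA came from the prefrontal cortex of C57BL/6J mice at postnatal day 25, after 3 weeks in which pups took up drug or vehicle through the mother's milk from day 3 to day 24. HT mice carried 1 Shank3 knock-in allele, and WT mice carried none. Shank3 encodes a scaffold protein of excitatory synapses. The 6 arms were HT lithium, HT fluoxetine and HT vehicle, with 10 mice each, then WT lithium with 9 mice, and WT fluoxetine and WT vehicle with 10 each. Each arm held 5 females and 5 males, except that WT lithium had 4 females. Lithium is a mood stabiliser that inhibits GSK-3 kinases and inositol phosphatases, and fluoxetine blocks serotonin reuptake. The sample columns of the deposited table, WT and HT, all have the prefix L68P. The labels do not otherwise name the knock-in allele. Litters are not given either, so pups that shared a mother were counted as independent and p-values measure the spread between pups.

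A ribosome holds each core protein once, apart from the paired acidic proteins of the P stalk, so their genes are usually expressed together. Their mRNAs are short, abundant and long-lived. Most start with a C followed by a run of pyrimidines, the 5′ terminal oligopyrimidine (TOP) motif, through which mTORC1 and the RNA-binding protein LARP1 control how strongly they are translated. That control acts mostly on translation and mRNA stability, which counts of poly(A) RNA reflect in part at most. In neurons, ribosomal protein mRNAs are also carried into dendrites and axons, where local protein synthesis takes place.

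The start of the transcript, where the TOP motif lies, is shown for 5 members whose RefSeq start on GRCm38.p6 has the motif and for 3 that have it only within 5 bases of the start. Each window has 30 bases, 15 before and 15 from the annotated start, read 5′ to 3′ on the gene's strand, and capitals mark the pyrimidine run from the annotated start onward, whichever bases stand before it. The positions were chr4:86857353-86857382 on the minus strand for Rps6, chr14:18270972-18271001 on the minus strand for Rpl15, chr9:120571502-120571531 on the plus strand for Rpl14, chr7:141447636-141447665 on the plus strand for Rplp2 and chr7:4792950-4792979 on the plus strand for Rpl28. For the other 3 they were chr17:24720048-24720077 for Rps2, chr11:98026695-98026724 for Rpl19 and chr13:90923107-90923136 for Rps23, all on the plus strand.
Rps6: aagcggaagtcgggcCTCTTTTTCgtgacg
Rpl15: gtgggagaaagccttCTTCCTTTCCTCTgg
Rpl14: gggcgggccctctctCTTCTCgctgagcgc
Rplp2: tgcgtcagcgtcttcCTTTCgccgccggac
Rpl28: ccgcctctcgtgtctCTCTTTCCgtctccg
Rps2: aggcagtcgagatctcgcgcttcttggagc
Rpl19: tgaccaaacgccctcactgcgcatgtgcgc
Rps23: gccttcggctgggcggggcttcccgcaatg

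Of the 60 members with a RefSeq promoter entry, 12 (20%) had a C followed by 4 or more pyrimidines at the annotated start. The same letters stood at the start of 2.49% of all 27025 promoters in the table. Allowing the motif to begin up to 5 bases to either side raised the counts to 28 members (46.7%), against 18.5% of all promoters. On the opposite strand the motif lay at the start of 2 members (3.33%), against 3.28% of all promoters. The motif is a match of letters at an annotated position, which can lie some bases from the start used in these tissues.

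Ribosomal protein mRNAs took up between 0.689% and 1.13% of a library. The 81 genes together held 0.760% at the lowest, 0.844% at the median and 0.884% at the highest in HT lithium mice, 0.755%, 0.793% and 0.887% in HT fluoxetine mice, and 0.690%, 0.872% and 1.06% in HT vehicle mice. In WT mice the corresponding shares were 0.689%, 0.803% and 0.943% with lithium, 0.695%, 0.8292% and 1.13% with fluoxetine, and 0.771%, 0.888% and 0.963% with vehicle. Every pair of arms overlapped, and in both genotypes the median was highest in the vehicle arm. The share is a sum over the members and was not tested.

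**Figure D1:**
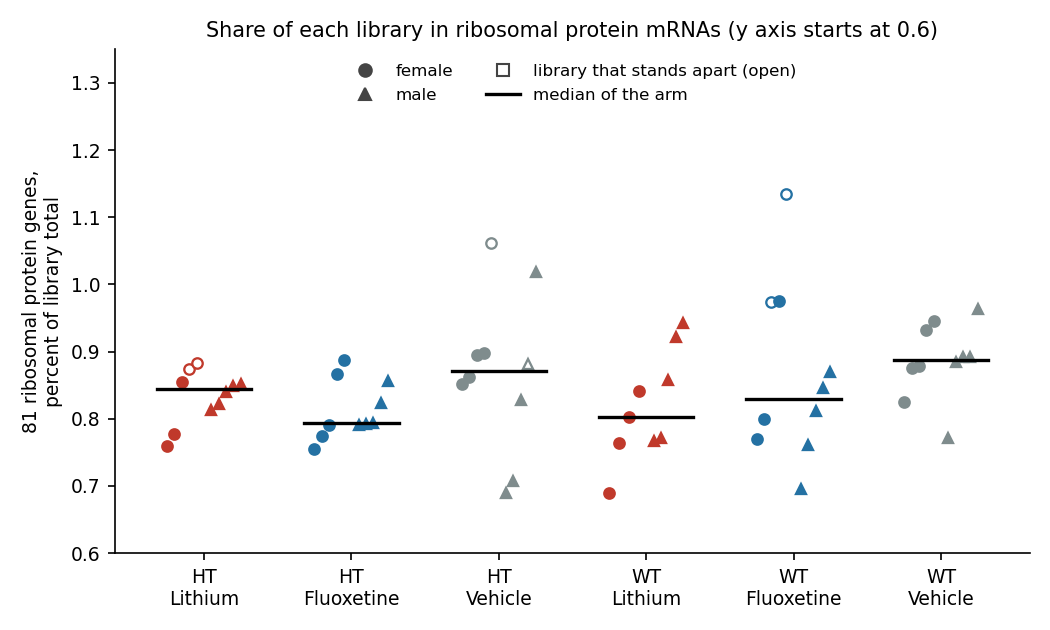
Summed counts of the 81 ribosomal protein genes as a percent of each library's total (vertical axis, starting at 0.6%), by arm; circles are females, triangles males, open symbols the 6 libraries that stand apart, and lines arm medians. All arms overlap, with vehicle medians of 0.872% in HT and 0.888% in WT mice.

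Per kilobase of transcript, so that genes of different length can be set side by side, the highest mean levels were those of Rplp1, an acidic P stalk protein (12519 normalized counts per kilobase), Rpl41, a very small basic protein (11403), and Rps15 of the small subunit head (8624). The lowest were Rpl12 (225), Rps27 (230) and Rps27l (293), the last a p53-inducible paralogue of Rps27. Rpl12 and Rps27 each have a near-identical copy elsewhere in the genome that was counted as a gene of its own. Rpl12 averaged 280 normalized counts beside 3138 for its copy Gm10275, and Rps27 79.2 beside 1270 for Rps27rt. The same held for Rpl10 (1130, with 2913 for Rpl10-ps3) and Rpl5 (1365, with 3854 for Gm15500). In all, 32 members had at least 1 listed copy of 95% identity or more over 200 bases or more, and copies held over 50% of the combined count for 5 of them and 8.09% of the combined sum over members.

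Members differed in how much they varied between mice of the same genotype, drug and sex. The SD between libraries was smallest for Rpl4 (0.066 on the log2 scale), Rpl3 (0.087) and Rpl6 (0.091), structural proteins of the large subunit core. Among members with a mean of at least 100 it was largest for Rps4l (0.331), which is annotated as a transcribed processed pseudogene, Rpl24 (0.327) and Rpl10 (0.314). The median over the 81 members was 0.155. For the 75 members with a mean of at least 1000 it was 0.151, against 0.131 for all 5847 tested genes at that level.

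Series-wide values that bear on these genes are as follows. Libraries held 22984556 to 35969254 reads, and Shank3 itself had median normalized counts of 9993, 8047 and 7756 in the HT lithium, fluoxetine and vehicle arms and of 7926, 7542 and 7616 in the WT arms in the same order, so its level does not by itself separate the genotypes. The cortical label was checked with 6 markers of glutamatergic cortical neurons, none of them at 0, whose summed count had arm medians of 87867 to 106247. Markers of the olfactory bulb varied between libraries: the index of 8 such markers, relative to a typical library, had arm medians from 0.313 in HT lithium mice to 1.16 in WT vehicle mice. A total of 6 libraries stand apart, by a bulb index of 2.65 to 3.75 in 4 of them (HT lithium female 4, HT vehicle male 4, WT fluoxetine females 1 and 4), by choroid plexus markers in HT vehicle female 1, and by a share of mitochondrially encoded reads of only 2.70% in HT lithium female 5. In tissue samples such as these, fewer cells of a type and less RNA per cell cannot be told apart.

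In WT lithium mice 18 of 81 members fell and 0 rose relative to WT vehicle mice, at an adjusted p under 0.05 in limma over 16599 genes. Of all genes tested, 5.11% fell and 7.66% rose in that comparison. The members' median log2 change was -0.115 and 71 of 81 were below 0, beside a median near 0 for all genes (-0.00356). The 18 were 9 of the 48 large subunit members and 9 of the 33 small subunit members. With the scale set by library totals, 10 members passed, with the trend over transcript length removed 3, and in males alone 0. Shares of all genes under the scaling and length settings are not given, so their counts are read only against the 18. The 8 olfactory bulb markers, none at 0 in every library, summed to 4011 to 20503 in WT lithium mice, against 3623 to 18120 in WT vehicle mice, with a median log2 change of -0.22 and 0 of 8 called. With the bulb index as a covariate 22 members passed.

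Rps6, Rps2 and Rpsa were among the small subunit members that fell. Rps6, the phosphorylated target of S6 kinase on the mTORC1 pathway, had a lowest, median and highest normalized count of 3185, 3780 and 3853 in WT lithium mice, against 3912, 4269 and 4872 in WT vehicle mice. The highest lithium mouse was below the lowest vehicle mouse. The log2 change was -0.22 ± 0.059 (SE; limma, adjusted p = 0.00999). Rps2, a protein of the mRNA entry channel, had 5812, 6760 and 7850 in WT lithium mice, against 6511, 8386 and 9263 in WT vehicle mice. The ranges overlapped, with 1 WT vehicle mouse, female 4, at 6511, and the log2 change was -0.29 ± 0.069 (limma adjusted p = 0.00302). Rpsa, which assembles late onto the small subunit and also serves as a laminin receptor, had 7097, 8123 and 9107 in WT lithium mice, against 7656, 9230 and 9941 in WT vehicle mice, an overlapping pair of ranges with a log2 change of -0.19 ± 0.055 (limma adjusted p = 0.0169; 0.0524 without WT lithium female 2).

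Rps3a1 also fell in WT lithium mice. This protein, which lies near the mRNA exit, had 4394, 4837 and 5144 normalized counts in WT lithium mice, against 4952, 5515 and 6154 in WT vehicle mice. The ranges overlapped only at their edges, and the log2 change was -0.20 ± 0.048 (limma adjusted p = 0.00405). Rps23, a protein of the decoding centre, fell by 0.19 on the log2 scale (limma adjusted p = 0.0399), a call lost in 9 of 19 fits that left out 1 library.

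In the large subunit, Rpl13 and Rpl23 had the largest falls in WT lithium mice. Rpl13 had 3200, 3554 and 4729 normalized counts in WT lithium mice, against 4003, 4809 and 5262 in WT vehicle mice; the ranges overlapped, but the lithium median was below every vehicle mouse, and the log2 change was -0.33 ± 0.079 (limma adjusted p = 0.0037). Rpl23, which in other cells also binds MDM2, had 2701, 3124 and 3661 in WT lithium mice, against 3118, 3890 and 4140 in WT vehicle mice, with a log2 change of -0.27 ± 0.062 (limma adjusted p = 0.00209). The lithium median was close to the lowest vehicle mouse, male 2, which stood below its arm. Rpl23a, at the exit of the peptide tunnel, had 3057, 3446 and 3826 in WT lithium mice, against 3606, 4008 and 4539 in WT vehicle mice, and fell by 0.21 on the log2 scale (limma adjusted p = 0.00608). Rpl4, the least variable member, fell by only 0.13 ± 0.036, with 8431, 8679 and 9214 in WT lithium mice, against 9040, 9468 and 10339 in WT vehicle mice (limma adjusted p = 0.00971).

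Other members that fell in WT lithium mice were Rps7 and Rpl7, described next, and Rpl3, Rpl11, Rpl19, Rpl22, Rps25 and Rps26, with log2 changes from -0.19 to -0.13. Each of these last 6 lost its call in 6 to 12 of the 19 fits that left out 1 library. The count of 18 ranged from 10 to 21 over those fits. It was 10 without WT lithium female 2, and 11 without any 1 of WT lithium male 4, WT lithium male 5 and WT vehicle male 4.

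In HT lithium mice 9 members fell and 2 rose relative to HT vehicle mice, where 9.43% of all tested genes fell and 10.9% rose. The share of members that fell, 11.1%, was close to that of all genes, and the members' median log2 change was -0.035 with 52 of 81 below 0, made up of -0.14 in females and 0.09 in males. It was 0.003566 without HT vehicle male 5. Of the large subunit 5 fell and 2 rose, and of the small subunit 4 fell. Without the 6 libraries that stand apart, 6 fell and 1 rose. The bulb markers summed to 3592 to 22985 in HT lithium mice, against 3439 to 24677 in HT vehicle mice, with a median log2 change of -0.87 and 0 of 8 called, and with the bulb index as a covariate 10 members passed.

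Rps7, whose human gene is mutated in Diamond-Blackfan anaemia, had the smallest adjusted p of the members that fell in HT lithium mice. It had 3477, 3649 and 3885 normalized counts in HT lithium mice, against 3519, 4195 and 4953 in HT vehicle mice, so the lithium mice filled the bottom of the vehicle range. The log2 change was -0.22 ± 0.048 (limma adjusted p = 0.000931). In WT lithium mice it had 3230, 3503 and 4107, against 3406, 4015 and 4637 in WT vehicle mice, with a log2 change of -0.18 ± 0.050 (limma adjusted p = 0.0104).

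Rpl14 and Rpl7 also fell in HT lithium mice. Rpl14 had 2108, 2304 and 2382 in HT lithium mice, against 2308, 2635 and 3017 in HT vehicle mice, a log2 change of -0.20 ± 0.048 (limma adjusted p = 0.00213). The Rpl14 ranges overlapped through 1 vehicle mouse, the lowest. Rpl7 had 3983, 4082 and 4707 in HT lithium mice, against 4251, 4648 and 5624 in HT vehicle mice, a log2 change of -0.19 ± 0.048 (limma adjusted p = 0.0026). In WT mice Rpl7 also fell with lithium, by 0.17 (limma adjusted p = 0.0136), while Rpl14 had a log2 change of -0.11 that did not pass the threshold.

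The 5S particle, in which Rpl5 and Rpl11 bind 5S rRNA and can hold the p53 ubiquitin ligase MDM2, had 1 member that fell in each genotype, Rpl5 in HT and Rpl11 in WT mice. Rpl5 had 1154, 1216 and 1421 in HT lithium mice, against 1270, 1476 and 1717 in HT vehicle mice, a log2 change of -0.25 ± 0.074 (limma adjusted p = 0.0132), and its WT lithium change of -0.15 did not pass. Rpl11 had 2510, 2940 and 3081 in WT lithium mice, against 2745, 3187 and 3760 in WT vehicle mice, a log2 change of -0.18 ± 0.064 (limma adjusted p = 0.0452), and its HT lithium change of -0.05, or -0.11 without HT lithium female 5, did not pass. Rpl5 shares its sequence with a more highly counted copy, as given above. Neither gene passed the test of a difference between the genotypes.

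Rpl15 and Rpl27 rested partly on 1 library in HT lithium mice. Rpl15 had 2434, 4207 and 4378 in HT lithium mice, against 3891, 4686 and 5208 in HT vehicle mice, and Rpl27 had 652, 1383 and 1635, against 1278, 1602 and 1949. For both genes the lowest value came from HT lithium female 5. The log2 changes were -0.22 ± 0.061 for Rpl15 (limma adjusted p = 0.00736) and -0.30 ± 0.096 for Rpl27 (limma adjusted p = 0.0224). Without that library they were -0.14, still past the threshold, and -0.19, no longer past it. Rpl27 also lost its call without HT vehicle female 1, male 4 or male 5, with adjusted p values up to 0.0863. The remaining members that fell were Rps3a1, by 0.16 (limma adjusted p = 0.0136), Rps25, by 0.19 (0.0225), and Rps26, by 0.17 (0.0419). Rps25 lost its call without HT vehicle female 1 or male 5, with an adjusted p up to 0.0917, and Rps26 lost it in 11 of 20 fits.

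The members that rose in HT lithium mice were Rplp2 and Rpl36, both with transcripts under 500 bases. Rplp2, a P stalk protein that recruits elongation factors, had 1950, 2776 and 3390 in HT lithium mice, against 1738, 2078 and 2527 in HT vehicle mice. The ranges overlapped over most of the vehicle range, but the lithium median exceeded every vehicle mouse, and the log2 change was 0.33 ± 0.093 (limma adjusted p = 0.00884). Rpl36 had 927, 1372 and 1654 in HT lithium mice, against 780, 1027 and 1315 in HT vehicle mice, with a log2 change of 0.33 ± 0.11 (limma adjusted p = 0.0205; 0.0567 without HT lithium female 1). In WT lithium mice the log2 changes were 0.05 for Rplp2 and 0.02 for Rpl36, and neither passed.

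The other P stalk genes did not pass in either genotype with the sexes averaged. Rplp1 had 4183, 6494 and 8135 normalized counts in HT lithium mice, against 3842, 5914 and 6572 in HT vehicle mice, with log2 changes of 0.19 in HT and 0.09 in WT mice. The HT value joined -0.16 in females with 0.55 in males, which passed within males (limma adjusted p = 0.0198). Rplp0, the scaffold that carries the acidic pair and a common reference gene for PCR, had 4271, 5085 and 5387 in HT lithium mice, against 4137, 5194 and 6060 in HT vehicle mice. Its log2 changes were -0.02 in HT mice and -0.09 in WT mice, and the HT value turned positive under 4 other settings. As a group, the stalk had 1 of 3 members that rose in HT lithium mice and none in WT lithium mice.

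**Figure D2:**
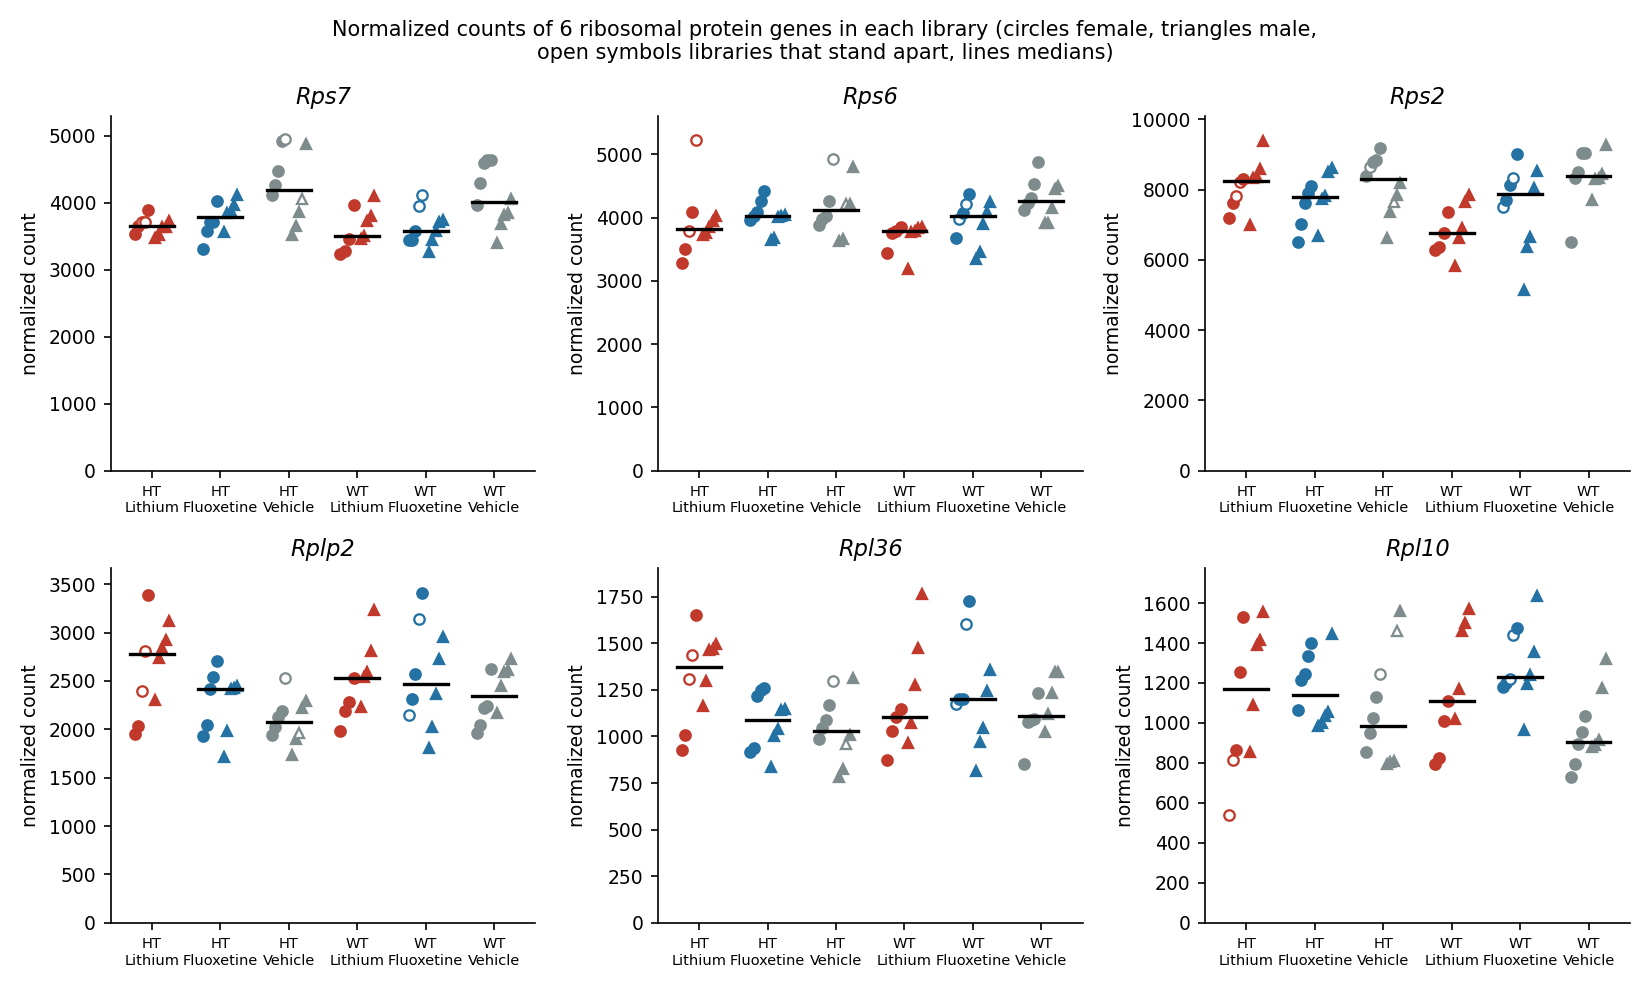
Normalized counts in each library for 6 members (vertical axes, starting at 0) by arm; circles are females, triangles males, open symbols the 6 libraries that stand apart, lines medians. Rps6 shows separate ranges in WT lithium and WT vehicle mice, and Rplp2 and Rpl36 are highest at the median in HT lithium mice.

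Of the lower lists, 5 members were shared: Rpl7, Rps3a1, Rps7, Rps25 and Rps26. They made up 55.6% of the 9 in HT mice and 27.8% of the 18 in WT mice. Over all tested genes, those lower in both made up 23.5% of the 1565 in HT mice and 43.3% of the 848 in WT mice. Of the 18 WT members, 17 were also below 0 in HT lithium mice, at a median log2 change of -0.10, the exception being Rpsa at 0.03. Rps2 was at -0.01, Rpl13 at -0.08 and Rpl23 at -0.12 in HT lithium mice, and none of these passed.

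The difference between the genotypes in the lithium response was tested directly. No member passed in limma, where 0.00602% of all genes passed. At an unadjusted p under 0.05, 14 members were above 0 and 0 below 0, beside 12.2% of all genes in either direction. Rpl29 (log2 difference, HT minus WT, 0.22 ± 0.073, limma adjusted p = 0.226), Rps2 (0.28 ± 0.096, 0.254) and Rpsa (0.22 ± 0.077, 0.260) had the smallest p values. The members' median difference was 0.09, with 62 of 81 above 0. edgeR and DESeq2 on recovered reads also gave 0.

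**Figure D3:**
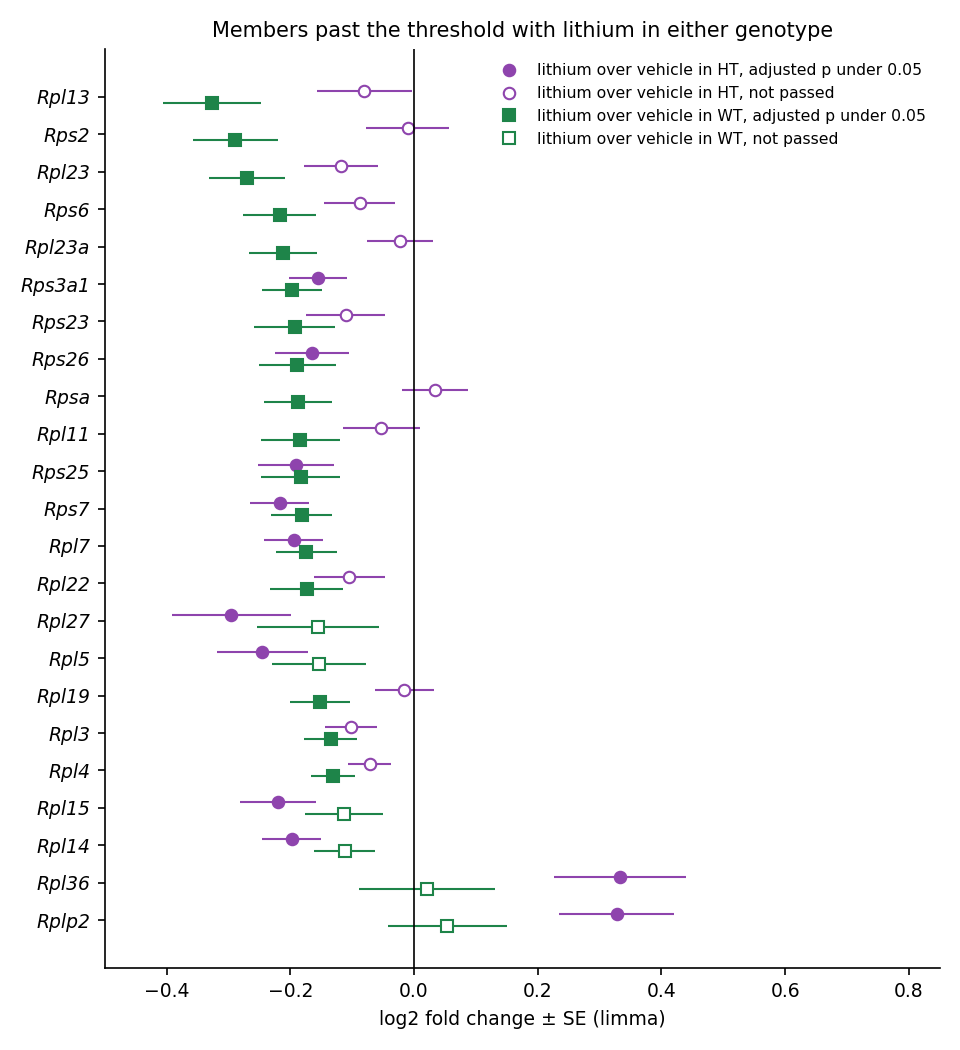
Log2 fold change, lithium over vehicle, ± SE for members past the threshold in either genotype; circles are HT and squares WT mice, filled where the adjusted p was under 0.05. Only Rplp2 and Rpl36 lie to the right in HT mice with a filled symbol, and 5 members are filled in both genotypes.

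Members were also grouped by the length of their annotated coding transcript, which 80 of 81 have. The 18 members under 500 bases had a median log2 change of 0.06 in HT lithium mice, with 2 that rose and 0 that fell, and of -0.05 in WT lithium mice, with 1 that fell. The 44 members of 500 to under 1000 bases had medians of -0.06 in HT mice, with 6 that fell, and of -0.12 in WT mice, with 12 that fell. The 18 members of 1000 bases or more had medians of -0.02 in HT mice, with 3 that fell, and of -0.12 in WT mice, with 5 that fell and 18 of 18 below 0.

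Other short mRNAs had medians of the same sign. The 1308 other tested genes with transcripts under 1000 bases had a median log2 change of -0.04 in HT lithium mice and of -0.09 in WT lithium mice. The 79 mitochondrial ribosomal protein genes, which serve a separate ribosome but are similarly short, had medians of -0.06 in HT lithium mice, with 1 that rose and 13 that fell, and of -0.10 in WT lithium mice, with 0 that rose and 15 that fell. Of all tested genes, 10.9% rose and 9.43% fell in HT lithium mice, and 7.66% rose and 5.11% fell in WT lithium mice. The members' median transcript length was 705 bases, against 2800 bases for all tested genes. With the trend over transcript length removed, 3 members passed in WT lithium mice in place of 18, and 12 in HT lithium mice in place of 11. The share of all genes that passed at that setting is not given, so these counts cannot be set against genes in general. The part of transcript length in these results was not tested further.

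**Figure D4:**
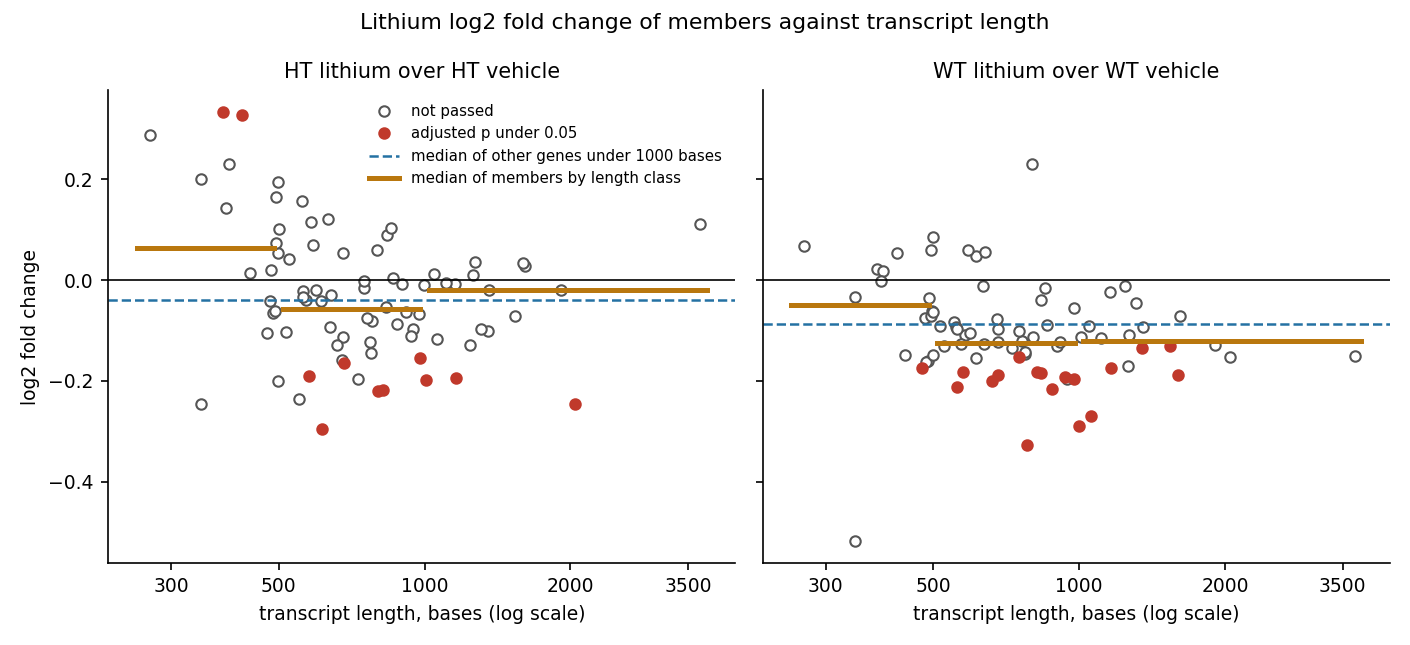
Log2 fold change, lithium over vehicle, of each member (vertical axis) against the length of its coding transcript in bases (horizontal axis, log scale), in HT and WT mice; filled points had an adjusted p under 0.05, solid lines are medians by length class and dashed lines the median of other genes under 1000 bases. In WT mice all 18 members of 1000 bases or more lie below 0, and in HT mice both members that rose are under 500 bases.

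The start motif was also set beside the lithium response. Of the 14 members that fell in WT lithium mice and had a promoter entry, 1 (7.14%), Rps6, had the motif at the annotated start, against 11 of the other 46 members (23.9%). Within 5 bases of that start the counts were 5 of 14 (35.7%) and 23 of 46 (50%). Rps2, Rpl19 and Rps23, printed above, fell and have it only within 5 bases of that position, and Rpl15, Rpl14, Rplp2 and Rpl28 had it and did not pass in WT lithium mice. These shares are descriptions of letters in the window.

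Genes that make or control ribosomes were read from lists. Of all tested genes, 10.9% rose and 9.43% fell in HT lithium mice, and 7.66% rose and 5.11% fell in WT lithium mice. Of 18 other genes listed as TOP class, mostly translation factors, 2 rose and 6 fell in HT lithium mice. In WT lithium mice 0 rose and 6 fell. The median log2 changes were -0.07 in HT and -0.13 in WT lithium mice. Eif3e, a subunit of the initiation factor eIF3, fell in both, by 0.39 in HT and by 0.27 in WT lithium mice. Npm1 fell by 0.20 in HT and by 0.17 in WT lithium mice, and Eif3m by 0.18 in HT and by 0.17 in WT lithium mice. Btf3 fell by 0.23 in HT lithium mice, and Eif3f by 0.20 in WT lithium mice. Eef2 (0.19) and Eef1d (0.18) were the 2 that rose in HT lithium mice. The TOP motif stood at the annotated start of 1 of the 12 listed genes with a promoter entry. Fau and Rack1, ribosomal proteins that the naming rule misses, did not pass in either genotype.

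Of 32 ribosome assembly factors, 7 rose and 8 fell in HT lithium mice, where 10.9% of all genes rose and 9.43% fell. In WT lithium mice 2 rose and 4 fell, where 7.66% of all genes rose and 5.11% fell. Nmd3, the export adaptor of the large subunit, fell in both, by 0.29 in HT and by 0.22 in WT lithium mice. Rsl1d1 fell by 0.26 and Rrp12 rose by 0.27 in HT lithium mice, the Rrp12 call being lost in 6 of 20 fits with 1 library left out, with an adjusted p up to 0.0777 without HT vehicle female 1. Mdn1, a large ATPase of subunit maturation, rose by 0.21 in HT and by 0.31 in WT lithium mice, and Ncl fell by 0.16 in HT and by 0.19 in WT lithium mice. Of 12 genes of RNA polymerase I transcription, 3 rose and 0 fell in each genotype, namely Taf1c (log2 change 0.25 in HT and 0.31 in WT mice), Polr1a (0.18 and 0.21) and Polr1b (0.16 and 0.13). The Polr1b call in WT mice was lost in 12 of 19 fits.

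Of 18 genes of mTORC1 and TOP mRNA control, 7 rose and 3 fell in HT lithium mice, where 10.9% of all genes rose and 9.43% fell. In WT lithium mice 5 rose and 1 fell, where 7.66% of all genes rose and 5.11% fell. Akt1s1, an inhibitory subunit of mTORC1, and Sesn2, a leucine sensor that restrains it, rose by 0.24 each in HT lithium mice, and Eif4e, the cap-binding factor, fell by 0.24. Sesn2 (0.27), and Tsc2 (0.23) and Tsc1 (0.19), whose products form a complex that restrains mTORC1, rose in WT lithium mice. Tsc2 (0.22) and Tsc1 (0.14) also rose in HT lithium mice, as did Larp1 (0.22), Rptor (0.21), a core subunit of mTORC1, and Eif4g1 (0.15). Mtor itself (0.16) rose in WT lithium mice, as did Rictor (0.15), which was on the list although it is not a subunit of mTORC1. Rheb, the activator of mTORC1, fell by 0.17 in HT and by 0.15 in WT lithium mice, and Rps6kb1, an S6 kinase, fell by 0.19 in HT lithium mice. Of 11 tested p53 targets, 1 rose in HT lithium mice (Zmat3, by 0.21, lost in 8 of 20 fits) and 2 rose in WT lithium mice (Trp53inp1, by 0.44, and Sesn1, by 0.18). Of 10 host RNAs of small nucleolar RNAs, Snhg3 fell by 0.46 and Snhg8 rose by 0.31 in HT lithium mice, and Snhg20 fell by 0.27 in WT lithium mice, a call lost in 14 of 19 fits.

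Of 10 members whose human genes are mutated in Diamond-Blackfan anaemia, 3 fell in HT and 3 in WT lithium mice, beside 9 and 18 of all 81 members, and all 10 were below 0 in WT lithium mice, as were 71 of the 81. Rps19, the gene most often affected in patients, did not pass, with 1617, 1694 and 2063 normalized counts in HT lithium mice, against 1229, 1563 and 2110 in HT vehicle mice. None of the 4 tested paralogues of core members, Rpl22l1, Rpl7l1, Rps27l and Rps4l, passed in any of the 4 drug comparisons. Rpl22l1 had 481, 547 and 623 normalized counts in HT lithium mice, against 408, 652 and 1075 in HT vehicle mice, and Rps27l 115, 142 and 175, against 121, 156 and 242. In both the vehicle range enclosed most of the lithium range. The X-linked Rps4x did not pass either, with arm medians between 4000 and 4239.

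Few ribosomal protein genes passed the threshold with fluoxetine. In WT fluoxetine mice 1 member rose and 1 fell, where 3.54% of all tested genes rose and 2.11% fell. Rpl10, a late-joining protein at the catalytic centre whose human gene has been linked to autism, had 963, 1230 and 1634 normalized counts in WT fluoxetine mice, against 730, 904 and 1320 in WT vehicle mice. The ranges overlapped, and the log2 change was 0.44 ± 0.14 (limma adjusted p = 0.0471). Its reads were shared with Rpl10-ps3, and the call was lost in 14 of 20 fits with 1 library left out. Rps7 had 3258, 3581 and 4110 in WT fluoxetine mice, against 3406, 4015 and 4637 in WT vehicle mice, and fell by 0.17 ± 0.048 on the log2 scale (limma adjusted p = 0.0262). That call was lost without WT fluoxetine female 2 or male 4, or WT vehicle female 3 or male 4, with an adjusted p up to 0.0563.

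The WT fluoxetine count moved with single libraries. No member passed without WT fluoxetine female 2, WT fluoxetine male 4 or WT vehicle female 3, and 1 passed without any 1 of 10 other libraries (WT fluoxetine female 4 and males 2, 3 and 5, and WT vehicle females 1 and 5 and males 2, 3, 4 and 5). Without the libraries that stand apart, 13 members passed, 1 higher and 12 lower. The share of all genes at that setting is not given, so the 13 cannot be set against genes in general. Those libraries include WT fluoxetine females 1 and 4, with bulb indices of 3.43 and 3.75, and WT fluoxetine female 1 had the highest ribosomal protein share of all libraries, 1.13%. With all libraries kept and the bulb index as a covariate, the WT fluoxetine count was little changed. The part of olfactory bulb RNA in that result was not tested further.

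In HT fluoxetine mice no member passed in limma or edgeR, while DESeq2 called 2. In this comparison 0.205% of all genes rose and 0.0723% fell. At an unadjusted p under 0.05, 15 members were lower and 0 higher, beside 11.6% of all genes in either direction. Rps7 had 3314, 3785 and 4109 in HT fluoxetine mice, against 3519, 4195 and 4953 in HT vehicle mice, a log2 change of -0.17 that passed without HT vehicle female 5, without HT vehicle male 2, and in females alone. Rpl10 was at 0.18 in HT mice and did not pass. The members' median log2 changes were -0.05 in HT fluoxetine and -0.06 in WT fluoxetine mice, with 63 and 58 of 81 below 0, and those of the other short mRNAs were -0.05 and -0.06. The bulb markers had median log2 changes of -0.56 in HT fluoxetine and -0.60 in WT fluoxetine mice, with 0 of 8 called in each. The fluoxetine and lithium comparisons of a genotype share their vehicle mice. The difference between the genotypes in the fluoxetine response passed for 0 members and 0.0% of all genes in limma. At an unadjusted p under 0.05, 0 members were higher and 1 lower, beside 5.08% of all genes in either direction. edgeR and DESeq2 also gave 0 members for that difference.

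Among the gene lists, fluoxetine gave 0 calls in HT mice for the TOP class list, the small nucleolar RNA hosts and the assembly factors. It also gave 0 in those mice for RNA polymerase I transcription, mTORC1 and TOP mRNA control and the p53 targets. In WT fluoxetine mice it gave 2 rises (Mdn1, Heatr1) and 1 fall (Nmd3) among assembly factors. It gave 2 (Polr1a, Taf1c) and 1 (Polr1d) among RNA polymerase I genes. Among mTORC1 and TOP mRNA control genes it gave 4 (Mtor, Rptor, Tsc1, Tsc2) and 1 (Rheb), and in the other lists 0. All but Polr1d and Rptor also passed in the same direction in WT lithium mice, set against the same WT vehicle mice. Of the mitochondrial ribosomal protein genes, 1 fell in HT fluoxetine and 4 fell in WT fluoxetine mice. Beside these lists, 0.205% of all tested genes rose and 0.0723% fell in HT fluoxetine mice. In WT fluoxetine mice 3.54% rose and 2.11% fell.

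The Shank3 knock-in by itself did not move ribosomal protein genes past the threshold. No member passed for HT over WT mice under vehicle, fluoxetine or lithium, and 0.0% of all genes passed in each of these limma comparisons. Under vehicle 0 members were higher and 4 lower at an unadjusted p under 0.05, beside 6.47% of all genes in either direction. The counts were 0 and 1 under fluoxetine (11.3% of all genes) and 6 and 0 under lithium (11.1%). At the adjusted threshold edgeR and DESeq2 gave 0 members in all 3. The members' median log2 changes were -0.04 under vehicle, -0.05 under fluoxetine and 0.04 under lithium. Under vehicle the median was 0.02 in females and -0.09 in males, with 62 of 81 below 0 in males, where 23 members were lower and 0 higher at an unadjusted p under 0.05 and 0 passed.

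The lithium response was also taken within each sex. In HT lithium females 13 members fell and 0 rose relative to HT vehicle females, where 5.45% of all genes fell and 6.14% rose. In HT lithium males 2 fell and 7 rose relative to HT vehicle males, where 4.38% fell and 5.31% rose. The members' median log2 change was -0.14 in females, with 72 of 81 below 0, and 0.09 in males, with 28 of 81 below 0. Among the 13 in females were Rpl9, Rpl14, Rpl15, Rpl17, Rpl27, Rpl32, Rpl35, Rpl41, Rps7, Rps18, Rps23 and Rps25. In males Rpl5 and Rpl7 fell, and Rplp1, Rplp2, Rpl29, Rpl36, Rpl41, Rps15 and Rps21 rose.

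Rpl41 passed in both sexes of HT mice in opposite directions. In HT lithium females it had 5159, 4464, 4491, 4971 and 4768 normalized counts, against 6257, 6477, 6507, 6465 and 5140 in HT vehicle females. In HT lithium males it had 5654, 6253, 5452, 5023 and 5872, against 4584, 3840, 3228, 3823 and 6658 in HT vehicle males. The lithium females lay below all but 1 of the vehicle females, and the lithium males lay above all but 1 of the vehicle males. The log2 changes were -0.37 in females (limma adjusted p = 0.031) and 0.39 in males (limma adjusted p = 0.0265). The difference, females minus males, was -0.76 ± 0.17, short of the threshold (limma adjusted p = 0.0664).

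Over all members, 0 passed for the difference between the sexes in the HT lithium response in limma and edgeR and 2 in DESeq2, where 0.012% of all genes passed in limma. At an unadjusted p under 0.05, 31 members were lower and 0 higher, beside 17.1% of all genes in either direction. The median difference, females minus males, was -0.23, with 74 of 81 below 0. Without HT vehicle male 5, 10 members passed, all lower, and 1 passed without any 1 of HT lithium female 1, HT vehicle females 1 and 5 and HT vehicle male 1. The median bulb index was 0.253 in HT lithium males, against 1.04 in HT vehicle males, and 1.36 in HT lithium females, against 0.546 in HT vehicle females. The olfactory bulb markers' median difference in this test was 3.14. With the bulb index as a covariate the limma count stayed at 0 members. The part of that tissue in the sex pattern was not tested further.

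The other short mRNAs had medians of the same sign in each sex. Their median log2 change in HT lithium mice was -0.13 in females and 0.06 in males. The members with transcripts under 500 bases had -0.14 in females and 0.33 in males, and those of 1000 bases or more -0.14 and 0.06.

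In WT lithium females 15 members fell and 0 rose, where 2.99% of all genes fell and 4.22% rose, and in WT lithium males 0 members passed, where 0.946% fell and 1.69% rose. At an unadjusted p under 0.05 the WT lithium males had 1 member higher and 9 lower. The medians were -0.17 in females and -0.05 in males. The difference between the sexes passed for 0 members and 0.0% of all genes in limma. At an unadjusted p under 0.05, 0 members were higher and 14 lower, beside 8.84% of all genes in either direction. edgeR and DESeq2 also gave 0 members, so the WT lithium effect is not shown to differ by sex. Rps7 had the largest female fall relative to its error, by 0.35 on the log2 scale (limma adjusted p = 0.00178).

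**Figure D5:**
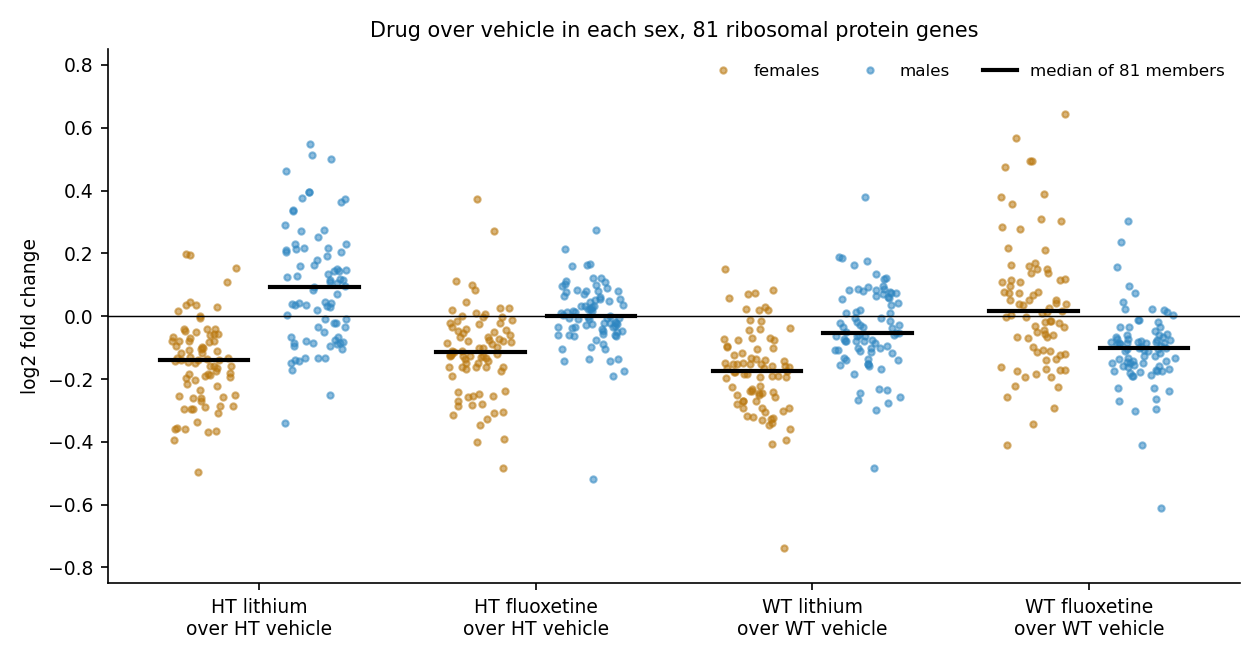
Log2 fold changes, drug over vehicle, of the 81 members within females and within males (vertical axis), by comparison; each point is a member and lines are medians. With lithium in HT mice the medians are -0.14 in females and 0.09 in males, and with fluoxetine in WT mice 0.02 in females and -0.10 in males.

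Fluoxetine in WT mice was the drug response in which members passed limma's test of a difference between the sexes, although none did with the GC trend removed. The difference, females minus males, passed for 6 members above 0 (7.41%) and 1 below 0 (1.23%), where 3.58% and 5.08% of all genes did. Over both directions together, members passed about as often as all genes. Rpl28 had 2871, 2321, 1952, 2483 and 1933 normalized counts in WT fluoxetine females, against 1874, 2019, 1862, 1859 and 1623 in WT vehicle females. In males it had 1537, 1859, 1609, 1874 and 1956 with fluoxetine, against 2172, 1900, 2332, 2253 and 1948 with vehicle. Fluoxetine females were mostly above vehicle females and fluoxetine males mostly below vehicle males, with overlap in both. The log2 difference was 0.58 ± 0.15 (limma adjusted p = 0.013), and Rpl28 kept this call with each library left out in turn but lost it with the GC trend removed (log2 difference 0.42, limma adjusted p = 0.201).

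Rpl8, a core protein next to the catalytic centre, had a log2 difference of 0.43 ± 0.12 (limma adjusted p = 0.0226) and the pseudogene Rps4l one of 0.9996 ± 0.29 (limma adjusted p = 0.0245). Rpl37 (0.65) and Rpl13 (0.46) were also above 0, and Rpl9 (-0.39) below. Except for Rpl28, each of these lost its call in 3 to 16 of 20 fits with 1 library left out. The count of 7 ran from 1, without WT fluoxetine male 1 or WT vehicle male 4, to 15, without WT fluoxetine female 5. It was 2 to 4 without WT fluoxetine females 1, 2 or 4, WT fluoxetine male 3, WT vehicle female 1, or WT vehicle males 3 or 5, and 11 or 12 without WT fluoxetine male 5 or WT vehicle male 2. Without the 6 libraries that stand apart it was 2. The bulb index had a median of 2.32 in WT fluoxetine females and 0.328 in WT fluoxetine males, and the bulb markers' median difference in this test was 1.41. With the bulb index as a covariate the count of 7 was little changed. The part of olfactory bulb RNA in this difference was not tested further.

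In WT fluoxetine females alone 6 members rose and 2 fell, where 6.3% of all genes rose and 7.07% fell, and in WT fluoxetine males 0 rose and 1 fell (Rpl13, by 0.41, limma adjusted p = 0.0379), where 0.952% rose and 0.608% fell. The 6 that rose in females were Rpl8, Rpl10, Rpl28, Rpl37, Rplp1 and Rps29, and the 2 that fell were Rpl9 and Rps7. In HT fluoxetine females 0 members rose and 2 fell, Rpl17 by 0.39 and Rps7 by 0.31, where 0.374% of all genes rose and 0.295% fell. In HT fluoxetine males no member passed in limma, with 0 higher and 2 lower at an unadjusted p under 0.05, and 0.0% of all genes passed. The difference between the sexes in the HT fluoxetine response passed for 0 members and 0.0% of all genes in limma, with 0 members higher and 9 lower at an unadjusted p under 0.05, and for 1 without HT vehicle male 5. For the genotype difference under vehicle it passed for 0 members and 0.00602% of all genes, with 14 higher and 0 lower at an unadjusted p under 0.05. edgeR and DESeq2 gave 0 members in both of these.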

How the data were processed

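Stranded poly(A) RNA libraries of prefrontal cortex were sequenced from 59 mice, per the labels' protocols. Per the submitters' processing notes, Salmon 0.11.2, DESeq2 1.19.11 and R 3.6.0 were used, with build GRCm38. What the authors deposited is a signal per gene, the count after division by a library size factor, and whole reads could be recovered for 100% of values within 0.001. Salmon divides reads among near-identical sequences by estimate, so members with copies are uncertain.

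A pseudocount of 1 was added before taking log2. Testing covered 16599 genes, those averaging 10 or more, and used limma 3.58.1 (R 4.3.3, trend and robust) over 12 groups of genotype, drug and sex, leaving 47 residual degrees of freedom. Tests were two-sided, and Benjamini-Hochberg adjustment ran over all tested genes within a comparison at 0.05. SE values are limma's. The difference in a response between the sexes is females minus males, and between the genotypes HT minus WT. edgeR 4.0.16 and DESeq2 1.42.0 on recovered reads were alternatives, as were other scalings, GC and length trends removed, a bulb index covariate, a replicate block, each sex alone and libraries left out. The design allowed for counts or normalized values, and the normalized case applied. The steps were tested on simulated data.

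Members named were first those past the threshold with the sexes averaged and of the same sign in both sexes. Of these, up to 8 per comparison and direction with the largest changes were taken. Named too were those called against the majority, the 3 highest and lowest per kilobase, and the 3 most and least variable. Up to 3 per interaction and a fixed list were added. Other members were named after their values were seen, and some members that were tested and counted are not reported here by name. The members, lists and rules were chosen with earlier results of these data known. Sequences are RefSeq's on GRCm38.p6, and gene models GENCODE's. Replicate numbers did not pair the libraries.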

Additional observations from a re-analysis of the deposited data

Results flagged for a closer look

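The normalized count of 1 library stood far from the rest of its arm in 24 of 228 cases (37 members and their summed share, in 6 arms each), where chance gives about 1 in 20. HT lithium female 5, the library with 2.70% mitochondrially encoded reads, gave 10 of them. It was the highest of its arm for Rpl3 (10990), Rpl4 (10790), Rpl6 (7252), Rpl11 (4253), Rps3a1 (6082), Rps6 (5231) and Rps19 (2063), and the lowest for Rpl15 (2434), Rpl27 (652.1) and Rps4x (3237). The members thus lay on both sides of their arms in that library.

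Among the other HT libraries, HT lithium male 5 was high for Rpl12 (366) and HT lithium male 2 for Rps27 (116.2). HT fluoxetine female 5 was low for Rpl15 (3867), HT fluoxetine male 2 low for Rps25 (1952), HT fluoxetine male 5 high for Rpl5 (1683) and HT fluoxetine female 4 high for Rps27 (288.8). In WT fluoxetine mice, female 1 was high for Rpl3 (12100) and Rps4x (6235), and female 3 was low for Rpl24 (1069). In WT vehicle mice, male 2 was low for Rpl23 (3118) and Rpsa (7656), female 4 low for Rpl24 (926.4), female 5 high for Rpl6 (6045) and female 2 high for Rps27 (246). Of these genes, Rpl5, Rpl12 and Rps27 have a copy with a higher count than their own.

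The effect of fluoxetine in WT mice differed between females and males for 7 members in limma, 6 above 0 and 1 below 0. Of all tested genes, 3.58% passed above 0 and 5.08% below 0, so over both directions members passed about as often. Among them, the log2 differences, females minus males, were 0.9996 for Rps4l, 0.647 for Rpl37, 0.5758 for Rpl28, 0.4622 for Rpl13, 0.4342 for Rpl8 and -0.3871 for Rpl9. The bulb markers had a median difference of 1.41 in the same test, with 0 of 8 called. Beyond the fit with the bulb index as a covariate, their part in it was not tested.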

How the results depend on the processing

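Of 68 called single-gene results, 0 changed direction under any alternative and 44 kept their call with every library left out in turn. With the length trend removed 28 lost their call, and with the GC trend removed 18. Without the libraries that stand apart 16 lost it, and with library total scaling 15. In females alone 26 lost it and in males alone 45, and under each other setting that kept all libraries at most 11. The 68 join calls of members with calls of up to 3 genes per gene list in each lithium comparison, so none of these is a count of members. Among the members, the WT fluoxetine calls of Rpl10 and Rps7 were lost without some libraries. So were the calls for sex by fluoxetine in WT mice, except that of Rpl28. Lithium calls of members that were lost with 1 library left out are named above. In WT lithium mice the count of 18 became 10 with library total scaling, 3 with the length trend removed and 0 in males alone, and ran from 10 to 21 with 1 library left out. In HT lithium mice the count of 11 became 7 (1 higher, 6 lower) without the libraries that stand apart, an alternative chosen after seeing the data, and ran from 8 to 15. The members' median there became 0.09239 in males alone, and ran from -0.06698 to 0.003566 with 1 library left out. The WT fluoxetine count of 2 became 0 with library total scaling; 1 with quantile normalization, no filter, only the groups compared, the length trend removed, copies added, or males alone; 4 with the GC trend removed; 8 in females alone; and 13 without the libraries that stand apart. It ran from 0 to 2 with 1 library left out. The HT fluoxetine count of 0 became 2 in females alone and with DESeq2, and ran from 0 to 1. The count for sex by lithium in HT mice became 1 with the GC trend removed and 2 with DESeq2, and ran from 0 to 10; that for sex by fluoxetine in HT mice ran from 0 to 1. The count of 7 for sex by fluoxetine in WT mice became 2 with only the groups compared, 0 with the GC trend removed, 12 with DESeq2 and 2 without the libraries that stand apart, and ran from 1 to 15. Except within each sex, shares of all genes at these settings are not given, so the counts are read only against the main count. The cause was not tested in any of these.

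Some genes past no threshold changed sign. In HT lithium mice Rplp0 was at 0.01035 with the length trend removed, 0.01891 with the bulb index as covariate, 0.09531 in males alone and 0.02733 without the libraries that stand apart, and ran from -0.04605 to 0.004545 with 1 library left out. Rplp1 was at -0.1594 in females alone, Rpsa at -0.03953 with quantile normalization, -0.01181 with the GC trend removed and -0.07894 in females alone, and Rpl13 at 0.02021 in males alone. Rps2 was at 0.02562 with the length trend removed, 0.1429 in males alone and -0.03354 to 0.02047 with 1 library left out. In WT lithium mice Rpl36 was at -0.0417 in females alone and -0.03596 to 0.07267 with 1 library left out.

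With the replicate number as a block, the counts were 18 in WT lithium, 11 in HT lithium and 1 in WT fluoxetine mice; the labels do not say what the numbers mark, and same-numbered libraries did not all deviate together. The median SD of a member between libraries of a group was 0.155 on the log2 scale, which limits how small a change can pass, and litters, which the labels do not give, could not be modelled.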
